A study of Mus musculus with 15 samples.

Results

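The 7 genes described here are the phosphate handling and mineralization genes *Alpl*, *Enpp1*, *Phospho1*, *Phex*, *Slc20a1*, *Slc20a2* and *Mgp*. They were chosen by name from the 54232 genes of the deposited count table, each matched 1 identifier, and all 7 were among the 22151 genes with enough counts to test. The samples were secondary palates of mice labelled WT, collected at 5 stages: embryonic days 13.5, 14.5, 15.5 and 16.5, written E13.5, E14.5, E15.5 and E16.5, and birth, written P0. Each stage had 3 bulk RNA sequencing libraries, and tissue of 3 embryos went into each library, so the spread given below is one between pools. No strain, sex or treatment was named in the labels, and stage is the only labelled difference between groups. Whether the pools of a stage came from separate litters is not stated, so p-values measure the spread between these libraries only.

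Bone mineral forms when phosphate and calcium crystallize on a collagen matrix, and pyrophosphate blocks that step. *Enpp1* encodes an enzyme that makes pyrophosphate from extracellular ATP, and *Alpl* encodes tissue-nonspecific alkaline phosphatase, which splits pyrophosphate into phosphate. *Phospho1* encodes a phosphatase that releases phosphate inside matrix vesicles, and *Slc20a1* and *Slc20a2* encode sodium-phosphate cotransporters. *Phex* encodes a membrane endopeptidase of osteoblasts and osteocytes whose loss causes renal phosphate wasting. *Mgp* encodes matrix Gla protein, a vitamin K-dependent inhibitor of calcification in cartilage and arteries. The palatal bones form directly within the mesenchyme of the shelves.

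Between 21.5 and 69.0 M counts (M is 1e6) fell in genes per library, with a median of 61.0 M over the 15. A detection floor of 3 counts was worth 0.0435 CPM in the deepest and 0.1397 CPM in the shallowest library and covers counting error only. CPM are counts scaled to a total of 1e6, for the genes below after adjustment by the trimmed mean of M values. Palate mesenchyme markers (*Pax9*, *Osr2*, *Msx1* and 4 others) were above the floor in every library, with sums of 117 to 460 CPM. Choroid plexus markers (*Ttr*, *Kcne2*, *Folr1*, *Otx2*), of a brain tissue, summed to 1334 and 725 CPM in E14.5 replicates 1 and 3, against 17.8 CPM in replicate 2, and to 375 and 137 CPM in P0 replicates 2 and 3, against at most 114 CPM in the other libraries. The calls and ratios of the members, and the pathway calls at E15.5, were also computed without these libraries. E13.5 replicate 3, the library at 114 CPM, was kept there, although its *Ttr* was at 88.4 CPM, against 98.4 CPM in P0 replicate 3. Osteoblast markers (*Runx2*, *Sp7*, *Col1a1*, *Ibsp*, *Bglap*, *Dlx5*) summed to 985 to 2157 CPM at E13.5 and E14.5 and to 13609 to 30726 CPM from E15.5 on. Most of that sum was *Col1a1*, with 14676 of 15969 CPM in E15.5 replicate 1 and 28846 of 30726 CPM in P0 replicate 1.

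Between E14.5 and E15.5, 5 of the 7 genes rose, and this was the only step between neighbouring stages at which more than 1 of them passed the test. *Phospho1* rose 8.64-fold, *Alpl* 5.34-fold, *Phex* 5.09-fold, *Mgp* 3.38-fold and *Enpp1* 2.45-fold. Neither phosphate transporter passed. The count of members called was 3 to 6 with single libraries left out. These fits called between 2320 of 22824 and 5816 of 22882 tested genes. Without E14.5 replicates 1 and 3 together, 1 library was left at E14.5. All 5 rises kept their sign there, but most did not pass, and most calls over all genes were lost. Tests were edgeR quasi-likelihood tests with Benjamini-Hochberg adjustment over all tested genes and a threshold of 0.05, and at this step 26.1% of all genes passed (12.7% higher and 13.4% lower). All 3 libraries at E15.5 lay above all 3 at E14.5 for 6 members, which was so for 24.0% of all genes. The median log2 fold change was 1.76 over the members and 0.03 over all tested genes. In bulk tissue, more cells of a type and more RNA per cell cannot be told apart, and markers of several cell types differed at the same step. Of the osteoblast markers 4 of 6 rose, with a summed level of 985 to 2157 CPM at E14.5 and of 13609 to 15969 CPM at E15.5. Of the osteoclast markers (*Acp5*, *Ctsk*, *Mmp9*, *Ocstamp*, *Calcr*) 4 of 5 rose, with sums of 68.5 to 80.6 and 149 to 404 CPM, and of the skeletal muscle markers (*Myh3*, *Acta1*, *Myog*, *Ttn*) 3 of 4, with sums of 197 to 873 and 1336 to 3765 CPM. Of the neuron markers (*Tubb3*, *Snap25*, *Elavl3*) 2 of 3 fell, with sums of 1086 to 2534 and 444 to 876 CPM. The part of these differences in the members' rise was not tested.

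No member passed from E13.5 to E14.5, where 0.00903% of all genes did. The libraries of all 7 overlapped there, against 29.2% of all genes without overlap, and 1 member, *Phospho1*, had an unadjusted p under 0.05, as had 3538 of the 22151 tested genes. From E15.5 to E16.5 *Slc20a2* alone rose, where 1.41% of all genes were called and 1.03% called higher, and 3 members had every E16.5 library above every E15.5 library, against 15.7% of all genes. From E16.5 to P0 no member passed, against 0.352% of all genes; 1 member, *Slc20a2*, had an unadjusted p under 0.05, as had 2602 of all tested genes, and was also the 1 whose P0 libraries were all higher (6.23%). DESeq2, run on the same counts, called no member at either of the steps where edgeR called none. Over the whole span, P0 against E13.5, 6 members rose and *Slc20a1* fell, beside 56.6% of all genes called, 29.8% as higher and 26.8% as lower. None of the 7 overlapped between these stages, as was so for 59.1% of all genes, 30.2% higher and 28.9% lower. Immediate early markers (*Fos*, *Fosb*, *Egr1*, *Atf3*, *Jun*) summed to 86.8 to 103 CPM at E13.5, 143 to 154 CPM at E16.5 and 261 to 504 CPM at P0. All 5 rose over the whole span and 4 of 5 from E16.5 to P0. Their part in the members' values was not tested. The test over all 5 stages called 7 of 7 members and 59.1% of all genes. Comparisons of neighbouring stages share the libraries of the stage between them.

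**Figure D1:**
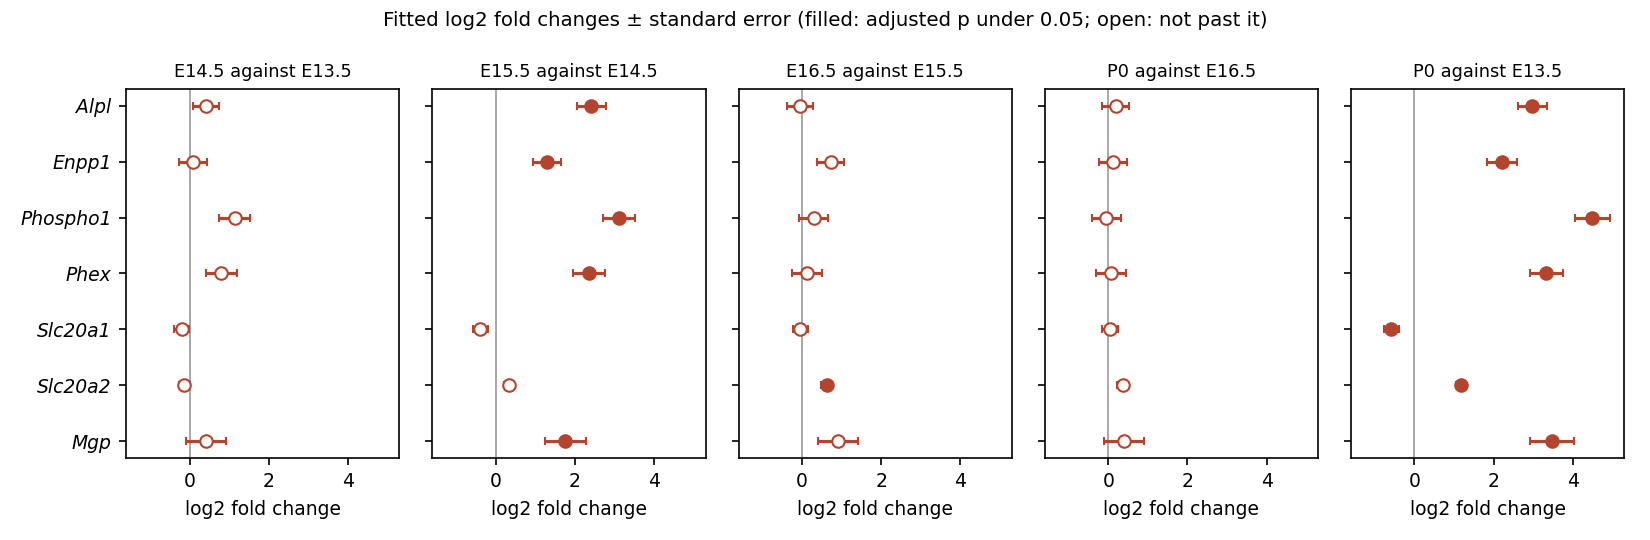
Fitted log2 fold change of each gene in 5 comparisons of stages (x axis, with standard errors, some smaller than the symbols; filled symbols have an adjusted p under 0.05). In the second panel *Phospho1* is farthest right at 3.11 and 5 symbols are filled, while the panels for E14.5 against E13.5 and for P0 against E16.5 hold open symbols only.

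The sequences before the start sites of genes that rose together at E15.5 are given from the RefSeq promoter table (GRCm38.p6), which matched 5 of the 7 genes. *Slc20a1*, which did not pass at that step, is shown beside them. Each window is 220 bases long, from 250 to 31 bases before the first listed start, read 5′ to 3′ on the gene's strand. Capitals mark matches, on either strand, to any of 4 short motifs: the RUNX core TGTGGT, the homeodomain core TAATTA, the TCF/LEF core CTTTGA and the GC box GGGCGG, with matches that overlap run together. The windows are chr4:137796415-137796634 (minus strand) for *Alpl*, chr11:95824250-95824469 (plus) for *Phospho1*, chrX:157415317-157415536 (minus) for *Phex*, chr10:24712190-24712409 (minus) for *Enpp1* and chr2:129198523-129198742 (plus) for *Slc20a1*.
Alpl: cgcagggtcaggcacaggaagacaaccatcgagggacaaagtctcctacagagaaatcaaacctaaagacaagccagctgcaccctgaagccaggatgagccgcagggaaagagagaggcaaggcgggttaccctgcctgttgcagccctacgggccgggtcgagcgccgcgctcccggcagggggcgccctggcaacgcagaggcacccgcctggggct
Phospho1: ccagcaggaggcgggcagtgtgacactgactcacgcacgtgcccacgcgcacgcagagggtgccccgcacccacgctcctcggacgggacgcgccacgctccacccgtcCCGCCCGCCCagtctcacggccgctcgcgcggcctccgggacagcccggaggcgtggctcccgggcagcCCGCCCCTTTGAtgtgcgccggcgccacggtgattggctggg
Phex: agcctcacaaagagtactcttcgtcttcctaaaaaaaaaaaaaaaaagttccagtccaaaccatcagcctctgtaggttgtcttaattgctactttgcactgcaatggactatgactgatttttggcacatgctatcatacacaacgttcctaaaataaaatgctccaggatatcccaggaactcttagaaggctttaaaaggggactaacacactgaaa
Enpp1: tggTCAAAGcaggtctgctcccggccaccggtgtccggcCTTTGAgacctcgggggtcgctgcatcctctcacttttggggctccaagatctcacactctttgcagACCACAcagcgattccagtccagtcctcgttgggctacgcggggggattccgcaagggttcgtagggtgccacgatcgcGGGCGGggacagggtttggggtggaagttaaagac
Slc20a1: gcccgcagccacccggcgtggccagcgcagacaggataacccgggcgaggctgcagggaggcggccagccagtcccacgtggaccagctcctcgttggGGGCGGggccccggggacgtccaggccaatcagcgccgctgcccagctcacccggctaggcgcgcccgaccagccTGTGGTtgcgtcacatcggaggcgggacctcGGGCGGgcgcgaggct

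No motif was in all 4 windows of the genes that rose. None of the 4 motifs occurred in the *Alpl* or the *Phex* window, and their GC contents were 64.5% and 38.6%, against a median of 51.8% over 32817 such windows. The *Phospho1* window, with 75.9% GC, held a TCF/LEF core at 66 to 61 bases before the start and GC box matches that begin 141, 137 and 72 bases before it, the first 2 of which overlap. The *Enpp1* window held 1 RUNX core match, 2 TCF/LEF core matches and 1 GC box, and the *Slc20a1* window held 1 RUNX core and 2 GC box matches. The RUNX core was in 12.7% of all windows, the homeodomain core in 4.55%, the TCF/LEF core in 12.6% and the GC box in 28.5%. A match describes letters only.

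*Alpl* (ENSMUSG00000028766.10) lies on chromosome 4 at 137741733 to 137796384 of GRCm38, on the minus strand. Its CPM were 28.8, 29.9 and 52.2 in E13.5 replicates 1 to 3, 43.7, 46.9 and 57.6 at E14.5, 249.9, 239 and 303 at E15.5, 189.8, 221 and 352 at E16.5, and 377, 149 and 346 at P0. All 9 libraries from E15.5 on were above all 6 earlier ones, and within each of those 2 sets the neighbouring stages overlapped. The change from E14.5 to E15.5 was 2.42 on the log2 scale (SE 0.36, adjusted p = 0.00116), from 49.4 ± 7.25 CPM to 264 ± 34.2 CPM (SD, n = 3), and the stage means then stayed between 254 and 290.5 CPM. This log2 fold change was at or above that of 95.0% of all tested genes. P0 replicate 2, the lowest P0 library for *Alpl*, was also the lowest in the osteoblast markers (16027 CPM, against 30726 and 17688 CPM in replicates 1 and 3). Replicate 3 was close to replicate 2 in these markers but had *Alpl* at 346 CPM, and the relation was not tested. Without E14.5 replicates 1 and 3, and with the lone E14.5 library assumed to vary like the others, the log2 fold change was 2.53 with an adjusted p of 0.0525.

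**Figure D2:**
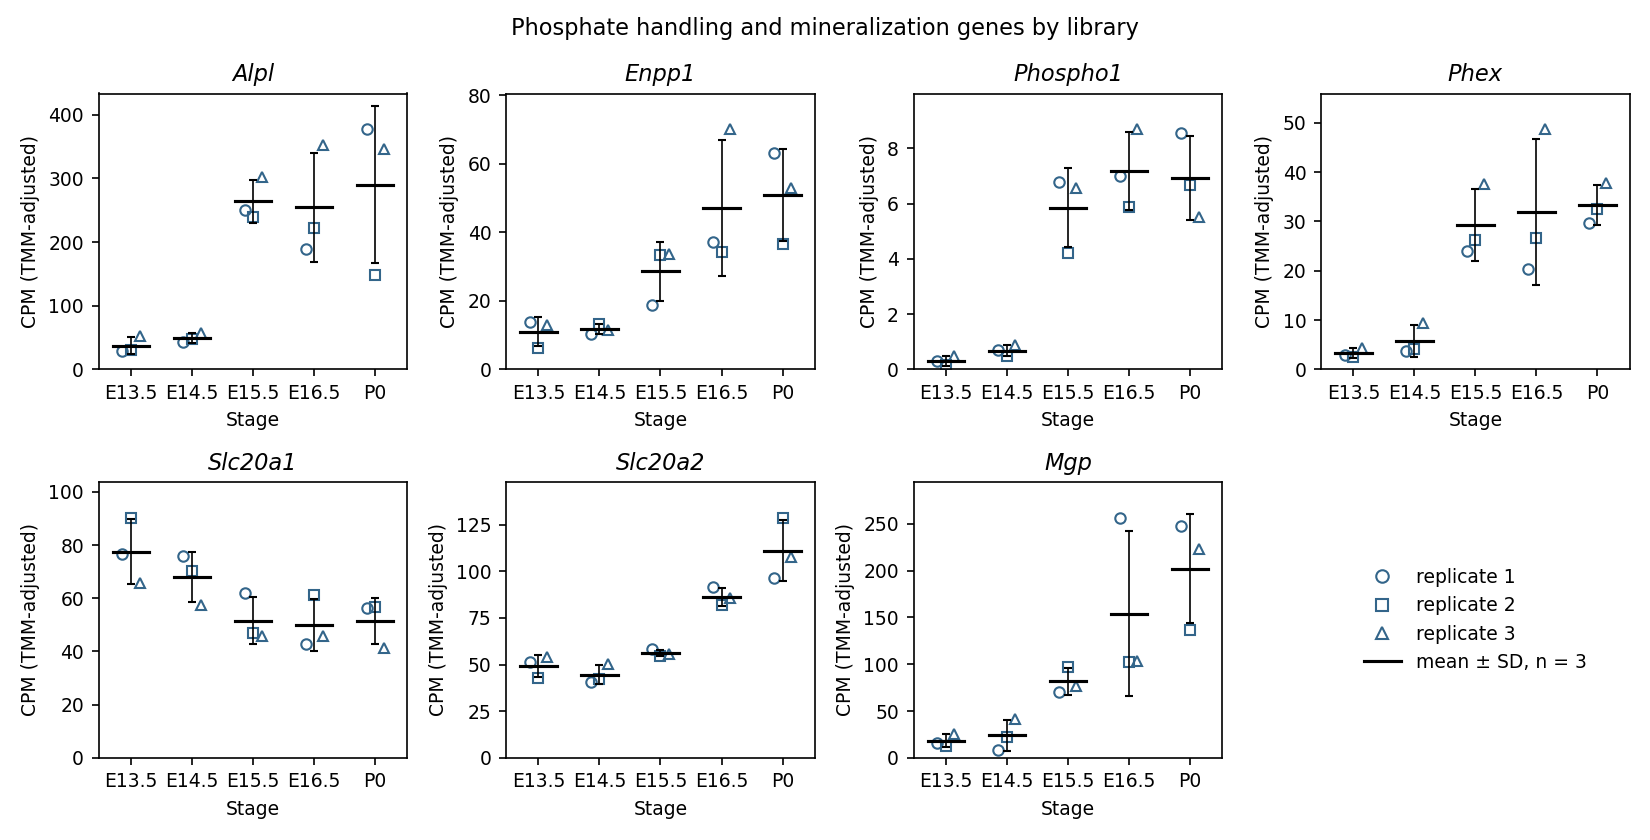
CPM of each gene in each library by stage (y axes start at 0 and differ in scale), with symbols for the replicate numbers and the mean ± SD of 3 libraries. The upper row and *Mgp* step up at E15.5, while *Slc20a2* is highest at P0 (96.3 to 129 CPM) and *Slc20a1* at E13.5 (65.8 to 90.2 CPM).

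*Enpp1* (ENSMUSG00000037370.13), the pyrophosphate-producing counterpart of *Alpl*, lies on chromosome 10 at 24637914 to 24712159, on the minus strand. Its CPM were 13.8, 6.24 and 12.98 at E13.5, 10.2, 13.1 and 11.6 at E14.5, 18.7, 33.5 and 33.7 at E15.5, 37.1, 34.2 and 70.05 at E16.5, and 63.2, 36.7 and 53.03 at P0. The libraries of E14.5, E15.5 and E16.5 did not overlap with one another, whereas those of E13.5 and E14.5 and those of E16.5 and P0 did. *Enpp1* rose from E14.5 to E15.5 by 1.29 on the log2 scale (SE 0.36, adjusted p = 0.0204). The next step, to 47.1 ± 19.9 CPM at E16.5, had a log2 fold change of 0.72 (SE 0.35) and did not pass (adjusted p = 0.255). The call at E15.5 was lost without any 1 of E14.5 replicates 1 and 2 and E15.5 replicates 2 and 3 (adjusted p 0.0505 to 0.0905), and without E14.5 replicates 1 and 3 together (log2 fold change 1.16, adjusted p = 0.285). Against E13.5, *Enpp1* at P0 was 4.63-fold higher (adjusted p = 0.000312).

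The ratio of *Alpl* to *Enpp1* within a library does not depend on how libraries are scaled, apart from the prior count in the log2 values; averages of ratios are geometric means. Per kilobase of exon (4033 bases for *Alpl*, 10257 for *Enpp1*), *Alpl* exceeded *Enpp1* in every library, on average 8.70-fold at E13.5, 10.7-fold at E14.5, 24.2-fold at E15.5, 13.97-fold at E16.5 and 13.7-fold at P0. The 3 ratios at E15.5, 18.2 to 33.9, lay above those of every other stage, which reached at most 16.6. The log2 ratio was higher at E15.5 than at E14.5 by 1.17, with no overlap and an exact two-sided permutation p of 0.1 (0.16 adjusted over 8 ratio tests), the smallest p that 3 libraries against 3 allow. Against E14.5 replicate 2 alone the difference was 1.41. The comparison of P0 with E13.5 gave a difference of 0.66 with overlap (exact permutation p = 0.2, adjusted 0.267).

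**Figure D3:**
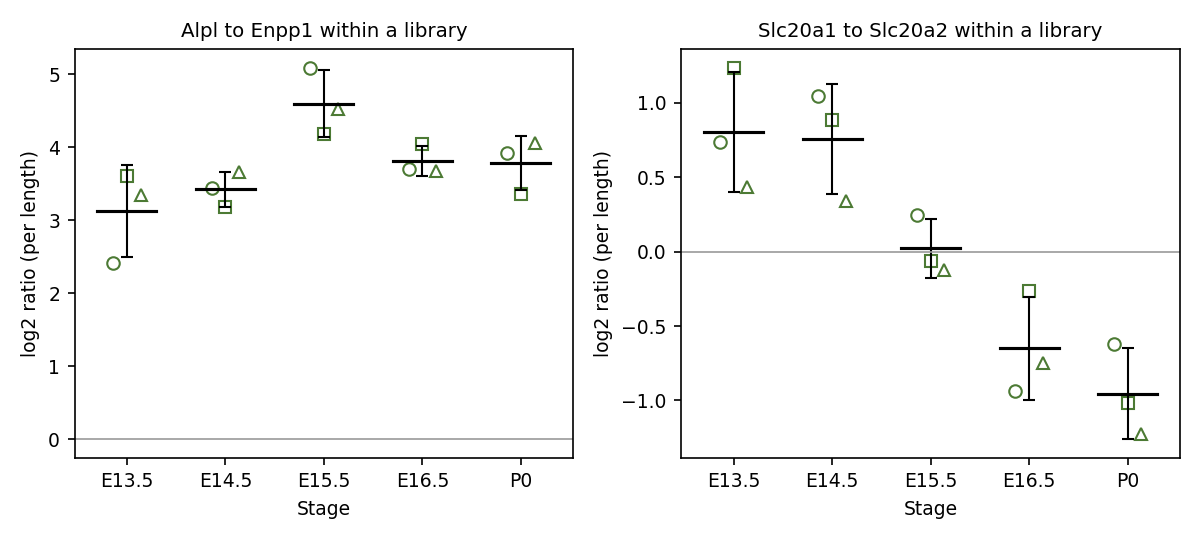
Log2 ratio of levels per kilobase within each library (y axis) by stage, for *Alpl* to *Enpp1* (left) and *Slc20a1* to *Slc20a2* (right); circles, squares and triangles are replicates 1, 2 and 3, and bars are mean ± SD. The left ratio peaks at E15.5 (24.2-fold), and the right one passes from above 0 at E13.5 (1.75-fold) to below it at P0 (0.516-fold).

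*Phospho1* (ENSMUSG00000050860.6) lies on chromosome 11 at 95824499 to 95832140, on the plus strand, and had the largest fold changes of the 7 at both the E15.5 step and over the whole span. Of its 2029 exon bases, 1818 (89.6%) are also exon bases of *Zfp652*, a zinc finger gene on the same strand. The recorded counting command left out fragments that overlap 2 genes, so mainly fragments that touch the first exon of 211 bases could be counted for *Phospho1*. Its level is therefore understated and is not set against the levels of other genes here; only the change of its ratio to *Alpl* between stages is given. It is given as counts too, which were 20, 10 and 33 at E13.5, 44, 31 and 62 at E14.5, 402, 283 and 454 at E15.5, 324, 213 and 355 at E16.5, and 309, 219 and 127 at P0. Scaled for depth, these were 0.141 to 0.490 CPM at E13.5, 0.469 to 0.871 at E14.5, 4.22 to 6.78 at E15.5, 5.89 to 8.69 at E16.5 and 5.53 to 8.57 at P0.

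The *Phospho1* libraries from E15.5 on were all above those of the first 2 stages, while E13.5 and E14.5 overlapped, as did E15.5, E16.5 and P0. The log2 fold change from E14.5 to E15.5 was 3.11 (SE 0.40, adjusted p = 0.000611), and that of P0 against E13.5 was 4.49 (SE 0.43, adjusted p = 9.06e-06), a 22.5-fold rise. The preceding step, E14.5 against E13.5, was 1.14 (SE 0.40) with an unadjusted p of 0.0132 and an adjusted p of 0.213. *Zfp652* was at 112 to 139 CPM at E14.5 and at 91.2 to 105 CPM at E15.5, a difference that did not pass (log2 fold change -0.34, adjusted p = 0.0934). The log2 ratio of *Phospho1* to *Alpl* was higher at E15.5 than at E14.5 by 0.64 and at P0 than at E13.5 by 1.54, without overlap in both cases (each exact permutation p = 0.1, adjusted 0.16). Against E14.5 replicate 2 alone the first difference was 1.03, and with P0 replicate 1 alone the second was 1.38.

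**Figure D4:**
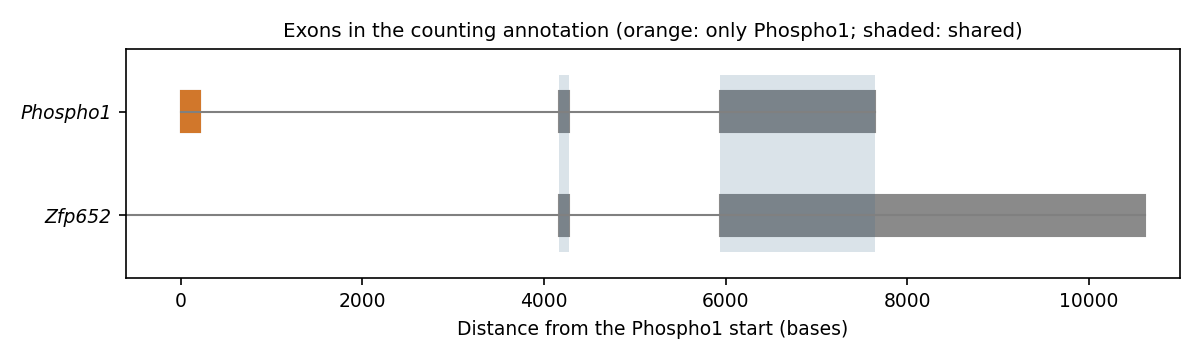
Exons of *Phospho1* and of the overlapping part of *Zfp652* in the annotation used for counting, by distance from the *Phospho1* start in bases. The first *Phospho1* exon (orange, 211 bases) is its only unshared one; the exons of 110 and 1708 bases lie wholly within *Zfp652* exons (shaded).

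*Phex* (ENSMUSG00000057457.11) lies on chromosome X at 157162075 to 157415312, on the minus strand. Its CPM were 2.94, 2.56 and 4.43 at E13.5, 3.63, 4.21 and 9.395 at E14.5, 23.9, 26.2 and 37.5 at E15.5, 20.4, 26.6 and 48.7 at E16.5, and 29.6, 32.6 and 37.7 at P0. As for *Alpl*, every library from E15.5 on lay above every earlier one, and E15.5, E16.5 and P0 overlapped. *Phex* rose from E14.5 to E15.5 by 2.35 on the log2 scale (SE 0.40, adjusted p = 0.00246) and was 10.1-fold higher at P0 than at E13.5 (adjusted p = 4.72e-05). The ratio of *Phex* to *Alpl* overlapped between E14.5 and E15.5, with a difference of 0.03 on the log2 scale (exact permutation p = 1). Over P0 against E13.5 that ratio differed by 0.43, also with overlap (exact permutation p = 0.6), and by -0.22 with P0 replicate 1 alone. *Phex* is X-linked and the pools differed in sex: the Y-linked markers *Ddx3y*, *Eif2s3y*, *Kdm5d* and *Uty* were each at most 0.166 CPM in all 3 E16.5 libraries and reached 59.5 CPM (*Kdm5d*) elsewhere, so that stage and sex cannot be told apart for E16.5. They were also near 0 in 1 library each of E13.5, E15.5 and P0. The remaining sex-linked marker, *Xist*, was at 1.67 and 1.54 CPM in E14.5 replicates 1 and 3 and at 407 CPM in replicate 2. It was at most 11.2 CPM in E13.5 replicate 3, E15.5 replicate 3 and P0 replicates 1 and 3. In all other libraries *Xist* was at least 269 CPM. The part of sex in the *Phex* values was not tested.

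In *Alpl*, *Enpp1*, *Phospho1* and *Phex* alike, replicate 3 was the highest of the E16.5 libraries. That library also had the highest sum of osteoblast markers (19412 CPM, against 14015 and 14992 CPM) and of osteocyte markers (132 CPM, against 57.2 and 72.4 CPM) of its stage. The same held for the osteoclast markers (2080 CPM, against 1174 and 1390 CPM), the epithelium markers (1732 CPM, against 474 and 946 CPM), the odontoblast and ameloblast markers (5.41 CPM, against 1.99 and 2.66 CPM) and the palate mesenchyme markers (225 CPM, against 117 and 194 CPM). Osteocyte markers (*Dmp1*, *Sost*, *Mepe*, *Fgf23*) summed to 1.699 to 1.92 CPM at E14.5, with *Dmp1* at 0.941 to 1.03 CPM. At E15.5 they summed to 37.9 to 61.6 CPM, almost all of it *Dmp1* (35.2 to 58.1 CPM). The part of these lists in the values of the 4 genes was not tested.

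The phosphate cotransporters moved in opposite directions over the whole span. *Slc20a1* (ENSMUSG00000027397.14; chromosome 2, 129198764 to 129211616, plus strand) had CPM of 76.8, 90.2 and 65.8 at E13.5, 75.9, 70.2 and 57.5 at E14.5, 61.98, 47.1 and 45.9 at E15.5, 42.97, 61.2 and 45.7 at E16.5, and 56.3, 56.9 and 41.4 at P0. Neighbouring stages overlapped at every step, while all 3 E13.5 libraries were above all libraries from E15.5 on. *Slc20a1* fell by 0.59 on the log2 scale from E13.5 to P0 (SE 0.19, adjusted p = 0.0185), from 77.6 ± 12.2 to 51.5 ± 8.74 CPM. The call was lost without E13.5 replicate 2 (adjusted p = 0.0780), without P0 replicate 3 (0.0778) and without P0 replicates 2 and 3 together (0.160). Within E13.5 and E14.5 the neuron markers *Tubb3*, *Snap25* and *Elavl3*, whose sum was 451 to 2534 CPM there, were lowest in replicate 3, as was *Slc20a1*, and the part of this in the fall was not tested.

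*Slc20a2* (ENSMUSG00000037656.9; chromosome 8, 22476788 to 22569612, plus strand) had the smallest spread of the 7 between libraries at 4 of the 5 stages, with the highest E15.5 library 1.06 times the lowest. Its CPM were 51.2, 42.6 and 54.1 at E13.5, 40.9, 42.3 and 50.5 at E14.5, 58.1, 54.6 and 55.7 at E15.5, 91.6, 81.8 and 85.5 at E16.5, and 96.3, 129 and 108 at P0. From E15.5 on each stage lay wholly above the one before it, while E13.5 and E14.5 overlapped. The log2 fold changes were 0.33 at E15.5 (SE 0.13, adjusted p = 0.0733), 0.62 at E16.5 (SE 0.13, adjusted p = 0.0428) and 0.36 at P0 (SE 0.13, adjusted p = 0.288), of which only the second passed. That call did not withstand leaving out any 1 of the 6 libraries compared (adjusted p 0.0521 to 0.192), with log2 fold changes of 0.56 to 0.66. P0 against E13.5 gave 2.25-fold (log2 fold change 1.17, SE 0.13, adjusted p = 2.17e-05), which passed without each library too.

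Per kilobase of exon (5580 bases for *Slc20a1*, 6216 for *Slc20a2*), *Slc20a1* was the higher of the pair in all 6 libraries at E13.5 and E14.5 and the lower in all 6 at E16.5 and P0. Its level per kilobase averaged 1.75 times that of *Slc20a2* at E13.5 and 1.69 times at E14.5. At E15.5 the 3 libraries lay on both sides of equality (0.918 to 1.19 times), and the average then was 0.638 times in the E16.5 and 0.516 times in the P0 libraries. The log2 ratio was lower at E15.5 than at E14.5 (difference -0.74) and lower at P0 than at E13.5 (difference -1.76), without overlap in both (each exact permutation p = 0.1, the smallest possible, adjusted 0.16). Against E14.5 replicate 2 alone the first difference was -0.86, and with P0 replicate 1 alone the second was -1.42. The neuron markers summed to 451 to 1575 CPM at E13.5 and 1086 to 2534 CPM at E14.5. Their sums were 444 to 876 CPM at E15.5, 460 to 891 CPM at E16.5 and 423 to 798 CPM at P0. The part of this in the ratio was not tested.

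*Mgp* (ENSMUSG00000030218.2; chromosome 6, 136872435 to 136875823, minus strand) was the one member that encodes an inhibitor of calcification in the matrix, and it rose at the same step as *Alpl*, *Enpp1*, *Phospho1* and *Phex*. Its CPM were 15.7, 13.1 and 25.9 at E13.5, 8.46, 22.4 and 41.6 at E14.5, 70.6, 97.4 and 76.9 at E15.5, 256, 102 and 104 at E16.5, and 247, 137 and 223 at P0. The libraries of E15.5 were above those of E14.5 and below those of E16.5, and E16.5 overlapped with P0. *Mgp* rose at E15.5 by 1.76 on the log2 scale (SE 0.52, adjusted p = 0.0263), did not pass at E16.5 (0.92, SE 0.50, adjusted p = 0.306), and was 11.1-fold higher at P0 than at E13.5 (SE 0.55 on the log2 scale, adjusted p = 0.000227). The call at E15.5 was lost without any 1 of E14.5 replicates 1 and 2 and E15.5 replicates 2 and 3 (adjusted p 0.0596 to 0.0870), without E14.5 replicates 1 and 3 together (log2 fold change 1.90, adjusted p = 0.116), and in a fit of the 6 libraries alone (0.0549).

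Within stages, the high and low *Mgp* libraries were in part those of the chondrocyte markers *Sox9*, *Col2a1*, *Acan*, *Col9a1*, *Matn1*, *Comp* and *Col10a1*. Their summed CPM were 422.5, 2179 and 2734 in E14.5 replicates 1 to 3, where *Mgp* was 8.46, 22.4 and 41.6 CPM, and 1607, 421 and 551 at E16.5, where *Mgp* was 256, 102 and 104 CPM. Between E13.5 and P0, 29.8% of all genes were called higher and 26.8% lower. Over that span, where *Mgp* rose, 2 of the 7 chondrocyte markers rose and 2 fell. Their sum, most of it *Col2a1*, was 1068 to 2847 CPM at E13.5 and 395 to 1258 CPM at P0. *Comp* was at 0.254 to 1.62 CPM at E13.5 and 5.57 to 39.5 CPM at P0, and *Col10a1* at 0.201 to 0.431 and 16.2 to 71.9 CPM. Smooth muscle markers (*Myh11*, *Acta2*, *Cnn1*, *Tagln*) are of another cell type known to make matrix Gla protein. They summed to 76.4 to 120 CPM at E13.5, 52.8 to 189 CPM at E14.5 and 410.4 to 489.9 CPM at P0. The part of either in the *Mgp* values was not tested.

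Per kilobase of exon, *Mgp* and *Alpl* were the most abundant of the 6 members compared from E15.5 on, and *Enpp1* and *Phex* were the least abundant. At P0 the means were 170 ± 48.9 CPM per kilobase (SD, n = 3) for *Mgp*, 72.03 ± 30.7 for *Alpl*, 17.8 ± 2.62 for *Slc20a2*, 9.24 ± 1.57 for *Slc20a1*, 5.297 ± 0.654 for *Phex* and 4.97 ± 1.30 for *Enpp1*. *Mgp* did not overlap with *Alpl* there (115 CPM per kilobase or more, against at most 93.5), *Phex* overlapped with *Enpp1*, and the other neighbours in this order did not overlap. At E13.5 the order was *Mgp* (15.4 ± 5.68), *Slc20a1* (13.9 ± 2.19), *Alpl* (9.17 ± 3.27), *Slc20a2* (7.94 ± 0.960), *Enpp1* (1.07 ± 0.404) and *Phex* (0.526 ± 0.157), with overlap between neighbours except *Slc20a2* and *Enpp1*.

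Other genes of the pathway were taken from 4 lists of 31 genes in all, of which 25 could be tested; *Slc34a1*, *Slc34a3*, *Alpi*, *Alppl2*, *Akp3* and *Ahsg* could not. From E14.5 to E15.5, 14 of the 25 rose, 1 fell and 10 did not pass, beside 12.7% of all genes called higher and 13.4% called lower, with a median log2 fold change of 1.02 (0.03 over all genes). None passed with edgeR from E13.5 to E14.5 or from E16.5 to P0, where 0.00903% and 0.352% of all genes did. At each of these steps 6 had an unadjusted p under 0.05, as had 3538 and 2602 of the 22151 tested genes. From E15.5 to E16.5, 1 rose, beside 1.03% of all genes called higher. Without E14.5 replicates 1 and 3, which left 1 library at that stage, all 15 genes called at E15.5 kept their sign. Most of them no longer passed, and most of the calls over all genes were lost too. With DESeq2 in place of edgeR the counts were 4 from E13.5 to E14.5, 6 from E15.5 to E16.5 and 1 from E16.5 to P0. Over all 22151 tested genes DESeq2 called 1000, 2094 and 663 at these steps.

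Among genes of pyrophosphate and phosphate supply, 2 of 7 rose and 1 fell at E15.5, where 26.1% of all genes passed. *Ank*, which exports pyrophosphate from cells, rose from 43.1 ± 2.38 to 63.2 ± 10.6 CPM (SD, n = 3; adjusted p = 0.0305) and the phosphate transporter *Slc34a2* from 0.0598 ± 0.0165 CPM, close to the floor, to 0.563 ± 0.284 CPM (adjusted p = 0.00273). *Xpr1*, which encodes a phosphate exporter, fell from 227 ± 74.7 to 72.5 ± 11.8 CPM (adjusted p = 0.00955). All 3 of the E14.5 libraries of *Xpr1* (171 to 312 CPM) were above the E15.5 libraries (59.5 to 82.4 CPM). The log2 fold change of *Xpr1* was -1.65, and -1.41 without E14.5 replicates 1 and 3 (adjusted p = 0.1396). Markers of neurons, as given above, were lower at the same step. Choroid plexus markers summed to 1334 and 725 CPM in E14.5 replicates 1 and 3, against 9.995 to 31.4 CPM at E15.5. Their sum in E14.5 replicate 2, 17.8 CPM, lay within the E15.5 range. The part of these markers in the fall was not tested. *Nt5e*, which makes adenosine from the AMP that *Enpp1* releases, was at 9.13 ± 4.98 and 21.03 ± 3.77 CPM and did not pass (adjusted p = 0.0596).

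Of 10 tested genes of the phosphate hormone axis and its matrix regulators, 5 rose at E15.5, where 12.7% of all genes were called higher. *Dmp1*, a phosphoprotein of osteocytes, went from 0.989 ± 0.0444 to 45.8 ± 11.5 CPM (adjusted p = 5.05e-05), *Spp1* (osteopontin) from 8.83 ± 3.09 to 313 ± 131 CPM (adjusted p = 0.000205), and the vitamin D receptor *Vdr* from 1.92 ± 0.593 to 14.5 ± 5.27 CPM (adjusted p = 0.000544). *Mepe* and *Galnt3*, whose enzyme protects FGF23 from cleavage, also rose. *Fgf23* itself, the phosphate-lowering hormone, was at 0.0447 to 0.212 CPM in the E14.5 and E15.5 libraries, close to the detection floor, and reached 0.427 to 0.499 CPM at P0. *Mepe* was at 0 in all 3 E13.5 libraries, and its mean of 5.52 CPM at P0 was at least 128-fold higher, reckoned from the floor of 3 counts per library.

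Beside 12.7% of all genes called higher at E15.5, the Gla protein pathway was the list in which every tested gene, 5 of 5, rose. They included *Ggcx*, the carboxylase that modifies matrix Gla protein (from 25.4 ± 5.39 to 39.8 ± 2.88 CPM, adjusted p = 0.0189), and *Vkorc1*, which recycles its vitamin K cofactor (from 9.48 ± 2.57 to 22.8 ± 0.968 CPM, adjusted p = 0.00702). *Gas6*, another Gla protein, rose at E15.5 (adjusted p = 0.004) and again at E16.5, from 102 ± 34.6 to 254 ± 24.1 CPM (adjusted p = 0.0284); the second call was lost without any 1 of E15.5 replicates 2 and 3 and E16.5 replicates 1 and 2, and without E14.5 replicates 1 and 3 together. The osteocalcin genes *Bglap* and *Bglap2* are near-identical, so their separate values are uncertain; *Bglap2* was at 0 in all E14.5 libraries and its mean of 2.74 CPM at E15.5 was at least 61.2-fold higher, reckoned in the same way. *Ggcx* was lower at P0 than at E13.5 (24.1 ± 2.94 against 33.7 ± 6.22 CPM, adjusted p = 0.0337). Of 3 matrix vesicle annexins, *Anxa2* and *Anxa5* rose at E15.5, to 744 ± 82.4 and 273 ± 15.2 CPM.

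**Figure D5:**
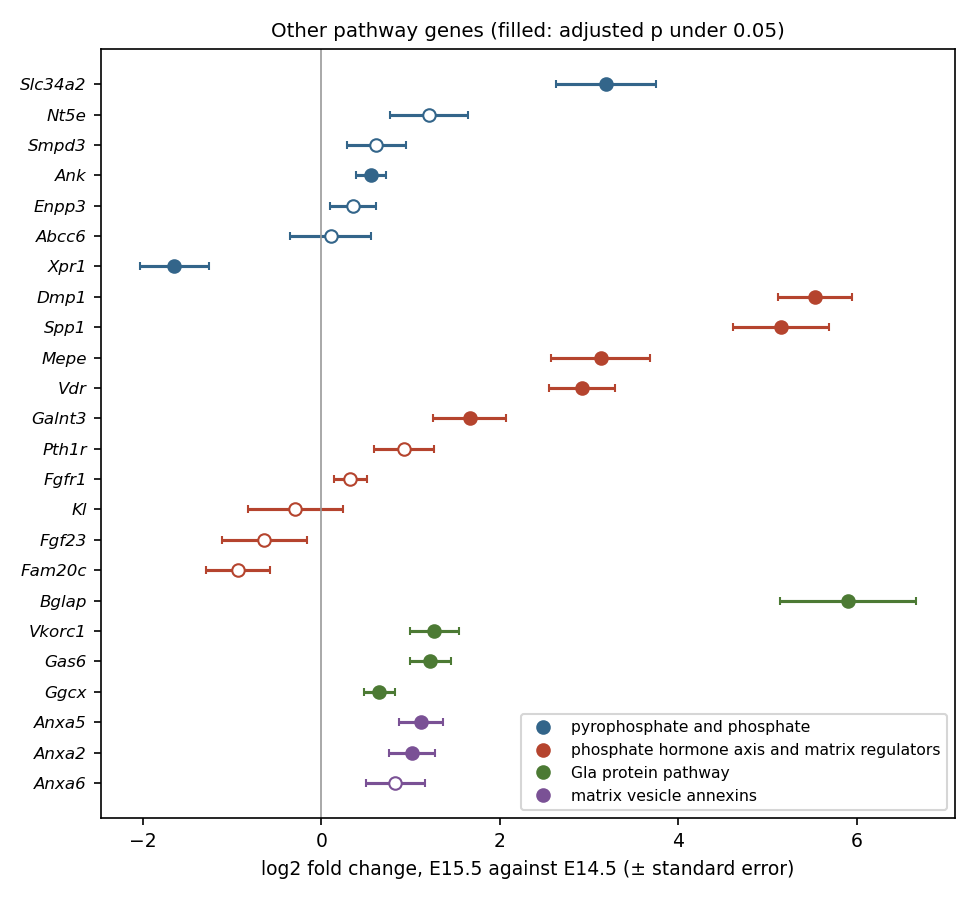
Log2 fold change ± standard error of 24 further pathway genes, E15.5 against E14.5 (x axis), coloured by list; filled symbols have an adjusted p under 0.05, and *Bglap2*, at 0 in all E14.5 libraries, is not drawn. *Dmp1* (5.53) and *Bglap* (5.90, near the detection floor at E14.5) are farthest right and *Xpr1* (-1.65) farthest left.

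For each member the 3 genes most like it were found by Pearson's r of log2 CPM over the 15 libraries, among genes with a mean of at least 10 CPM. They were *Ifitm5*, *Entpd3* and *Insc* for *Alpl* (r 0.987 to 0.989), *Col13a1*, *Spi1* and *Tgfb1* for *Enpp1* (0.974 to 0.977), *Adgrd1*, *Sgms2* and *Ibsp* for *Phospho1* (0.984 to 0.986), and *Adgrd1*, *Sgms2* and *Aspn* for *Phex* (0.976 to 0.981). For *Slc20a2* they were *Pdlim1*, *Akip1* and *Ubxn8* (0.965 to 0.975), for *Mgp* *Khk*, *Anpep* and *B2m* (0.982 to 0.985), and for *Slc20a1* *Spsb4*, *Glrx2* and *Dip2b* (0.893 to 0.899). Spearman's rho of these pairs was 0.818 to 1. *Phospho1* and *Phex* thus shared 2 of 3. The libraries fall into those before and those from E15.5, a step that most of these genes share, so the values describe the pairs and no p is given.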

How the data were processed

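RNA of 15 pooled palate libraries was sequenced. Per the file headers, the authors counted fragments per gene with featureCounts 2.0.1 (reverse strand, GENCODE M18), and fragments overlapping 2 genes were left out by default; the deposited values are raw counts. The submitters' processing notes list mm10, cutadapt 3.4, HISAT2 2.2.1 and SAMtools 1.12 without their order. Symbols came from GENCODE M21 for 54079 of 54232 identifiers, and all 7 genes had the same position there, so positions are on GRCm38.

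Genes were filtered with filterByExpr (minimum count 10), scaled by TMM, and modelled over all libraries with 1 coefficient per stage in edgeR 4.0.16 under R 4.3.3; quasi-likelihood F tests of 5 contrasts and of the 5 stages were adjusted by Benjamini-Hochberg over 22151 genes (threshold 0.05). Standard errors (SE) of log2 fold changes were reckoned from these tests, as the absolute log2 fold change divided by the square root of F. Library ratios used log2 CPM (prior count 2) and exact permutation tests, and exon lengths came from the deposited table. Libraries of a stage differed beyond counting error (chi-square per degree of freedom at least 29.5), and none were identical. The members, gene lists and marker lists were chosen with earlier results of these data known; the 7 genes, the 3 genes most like each and list genes past the threshold at a neighbouring step were named, and list genes not past it were singled out after their values were seen. 1 gene of the osteoblast marker list is not reported here and is left out of its sums. The fitting code was tested on simulated data. Alternatives were DESeq2 1.42.0, its size factors or upper-quartile scaling in edgeR, no filter, a mean of at least 1 CPM, thinning to the smallest total, a replicate block, the 6 libraries of a contrast, a prior count of 0.5 and each library left out. Leaving out E14.5 replicates 1 and 3 or P0 replicates 2 and 3 together was added after their marker levels were seen.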

Additional observations from a re-analysis of the deposited data

How the results depend on the processing

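The number of members called (5 from E14.5 to E15.5, 7 at P0 against E13.5, 7 over the 5 stages) was 2 to 6, 6 to 7 and 6 to 7 under the alternatives. From E14.5 to E15.5 it was 3 to 6 with single libraries left out, 6 with DESeq2, and 2, *Phospho1* and *Phex*, without both E14.5 libraries high in choroid plexus markers. These 2 passed at that step in all 15 alternatives, and *Alpl* in 14. The call of *Slc20a2* from E15.5 to E16.5 was lost in 11 of 15: the count there was 0 with upper-quartile scaling, without the filter, after thinning, in the fit of 6 libraries, without both E14.5 libraries, and in all 6 fits with a library left out. *Slc20a2* also passed from E14.5 to E15.5 in 5 alternatives, DESeq2 among them (adjusted p = 0.0465).

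All sign changes were in differences that did not pass. Ranges with single libraries left out were -0.20 to 0.28 for *Enpp1* and -0.23 to 0.82 for *Mgp* at E14.5 against E13.5; -0.36 to 0.11 for *Alpl*, -0.32 to 0.36 for *Phex* and -0.22 to 0.10 for *Slc20a1* at E16.5 against E15.5; and -0.0452 to 0.49 for *Alpl*, -0.0765 to 0.51 for *Enpp1*, -0.24 to 0.10 for *Phospho1*, -0.18 to 0.50 for *Phex* and -0.0491 to 0.21 for *Slc20a1* at P0 against E16.5. Without both P0 libraries high in choroid plexus markers, *Phospho1* was 0.22 and *Phex* -0.14 at P0 against E16.5, and after thinning *Phospho1* was 0.0053 there. The difference of the *Phex* to *Alpl* ratio at E15.5 was -0.15 to 0.33 with libraries left out and -0.0117 after thinning, and that of P0 against E13.5 was -0.217 without both P0 libraries. The cause of these changes was not tested.

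Over all genes, DESeq2 called 1000 from E13.5 to E14.5, 2094 from E15.5 to E16.5 and 663 from E16.5 to P0, against 2, 312 and 78 with edgeR, while fits of 6 libraries called 0 at each of these steps (5089, 4267 and 1129 genes with an unadjusted p under 0.05). Leaving out single libraries gave 0 to 28, 0 to 504 and 10 to 216 there and 2320 to 5816, in place of 5773, from E14.5 to E15.5, where leaving out both E14.5 libraries gave 589. Without the filter, 6 genes passed from E13.5 to E14.5 and 25 from E16.5 to P0. Upper-quartile scaling shifted the all-gene median from E14.5 to E15.5 from 0.03 to 0.16 (log2) and the calls from 2803 higher and 2970 lower to 3424 and 2007; from E16.5 to P0 the calls went from 42 higher and 36 lower to 36 and 17. Same-numbered libraries did not all deviate together (r -0.30 to 0.55 over 30 pairs, 9 of them over 0.1). The mean r was 0.06 for these pairs and -0.03 for pairs of other numbers, and 7 of 15 libraries matched their own number best. Whether the number pairs libraries is therefore not settled. With a replicate block the counts of members called remained 0, 5, 1, 0, 7 and 7, and all genes called became 135 from E13.5 to E14.5 and 35 from E16.5 to P0; list genes called from E15.5 to E16.5 became 3 in place of 1. *Phospho1* had 10 to 62 counts in each of the first 6 libraries, and *Fgf23* was near the floor. With 3 libraries a stage, no exact permutation test could go below 0.1.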
